A study of Mus musculus with 6 samples.

Results

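Collagen genes were described in mouse embryonic fibroblasts (MEF, connective tissue cells grown from mouse embryos) across 4 RNA-seq libraries. The genes were those rows of the deposited table whose Ensembl ID maps to a symbol made of Col, a number, the letter a and a number. The rule uses names and no measured value. It found 44 genes among 37224 rows, and 23 of them had an RPKM (reads scaled to gene length and library depth) of at least 1 in any library. All cells were labelled primary MEF on a C57BL/6 background, and the protocol describes them as diploid and not tumorigenic. The groups were wild-type cells left untreated, wild-type cells given sodium arsenite, Dot1L null (Dot1L-/-) cells left untreated and Dot1L null cells given sodium arsenite. Dot1L is the enzyme that methylates lysine 79 of histone H3. Exposure lasted 24 h at a level labelled low, and the protocol lists 5 and 10 µM without saying which was sequenced. Each group held 1 library. The protocol speaks of a pair of cell lines, so genotype cannot be told apart from other differences between the lines, and treatment cannot be told apart from other differences between libraries. Another 2 libraries, of acetylated lysine 27 of histone H3, were not analysed here.

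Collagens are secreted proteins built of 3 chains wound into a triple helix, and each chain has its own gene. Fibrillar collagens (types I, II, III, V, XI, XXIV and XXVII) assemble into the fibres that give connective tissue its strength, type IV collagen forms the net of basement membranes, and type VI collagen forms beaded microfilaments around cells. FACIT collagens (fibril-associated collagens with interrupted triple helices) sit on the surface of fibrils. Fibroblasts are the main producers of fibrillar collagen and of type VI collagen in most tissues.

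Depth recovered from the RPKM values ranged from 10833103 to 64699847 reads, with both arsenite libraries shallower than both controls. Dot1l, the gene labelled as inactivated, had an RPKM of 30.4 in untreated wild-type cells and 9.59 in untreated null cells, 3.17-fold lower. With arsenite it was 5.71 and 1.24, 4.61-fold lower. It was therefore lower, not absent, in the libraries labelled null. Of 11 fibroblast markers, whose summed RPKM ranged from 2723 to 12057, 8 reached an RPKM of 1, Vim and Dcn among them. Thy1 was listed at 0 in all 4 libraries and Lum and Fap stayed below 0.1. S100a4 made up most of both arsenite sums, at 4191 of 4959 in wild-type and 10957 of 12057 in null cells. By the 2-fold count defined below, 5 of the 8 were lower with arsenite and 1 higher in wild-type cells, beside 35.7 and 12.8% of all genes tested. In null cells 3 were lower and 1 higher, beside 37.1 and 15.2%. For other cell types, RPKM summed over each list ranged from 1.69 to 25.8 for 8 cartilage genes (nearly all from Sox9; Chad was listed at 0 and Acan did not pass 0.0343), from 2.27 to 16.1 for 6 bone genes (Ibsp and Dmp1 at 0), from 0.319 to 3.26 for 7 epithelial genes (Epcam at 0), from 0.153 to 2.23 for 6 endothelial genes (Emcn at 0), from 0.554 to 2.19 for 6 skeletal muscle genes (Myod1 at 0), from 2.69 to 9.28 for 6 macrophage and leukocyte genes, from 3.99 to 23.1 for 5 adipocyte genes (Lep at 0), from 34.9 to 122 for 8 neural and glial genes (mostly Nes, Tubb3 and Sox2) and from 101 to 1578 for 5 smooth muscle genes (mostly Acta2). The bone, epithelial, endothelial, skeletal muscle and adipocyte lists also held members that reached an RPKM of 1. In the order wild-type control, wild-type arsenite, null control and null arsenite, Runx2 (bone) had 15.5, 2.36, 2.86 and 1.59. Fabp4 (adipocyte) had 1.42, 8.12, 1.77 and 22.6. Cdh1 (epithelial) stood at 2.71 in the wild-type control, and Cdh5 (endothelial) passed 1 in the null control only. Des (skeletal muscle) had 1.45 and 1.68 in the arsenite libraries. The part of other cells in the results below was not tested. In bulk RNA, fewer cells of a type and less RNA per cell cannot be told apart.

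In untreated wild-type cells the genes with the highest RPKM were those of types I, III and IV. Values below are given in the order wild-type control, wild-type arsenite, null control and null arsenite. Col1a1, a chain of type I collagen, had the highest collagen RPKM in both wild-type libraries (335, 63.9, 133 and 72.2). Untreated, Col3a1 (134.8) and Col4a1 (134.3) came next and were nearly level, followed by Col12a1 (96.6), Col4a2 (89.2), Col5a1 (70.1), Col1a2 (64.2), Col6a1 (61.2), Col5a2 (36.2) and Col4a5 (27.5). The order differed in the null control, where Col1a2 (206) was first, then Col1a1 (133), Col5a2 (81.1) and Col18a1 (58.7). It differed again in the null with arsenite, where Col6a1 (84.4) was first, then Col1a1 (72.2), Col1a2 (50.9) and Col6a2 (25.6). With 1 library per group, neighbours in these orders have no spread between replicates to be set against.

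**Figure D1:**
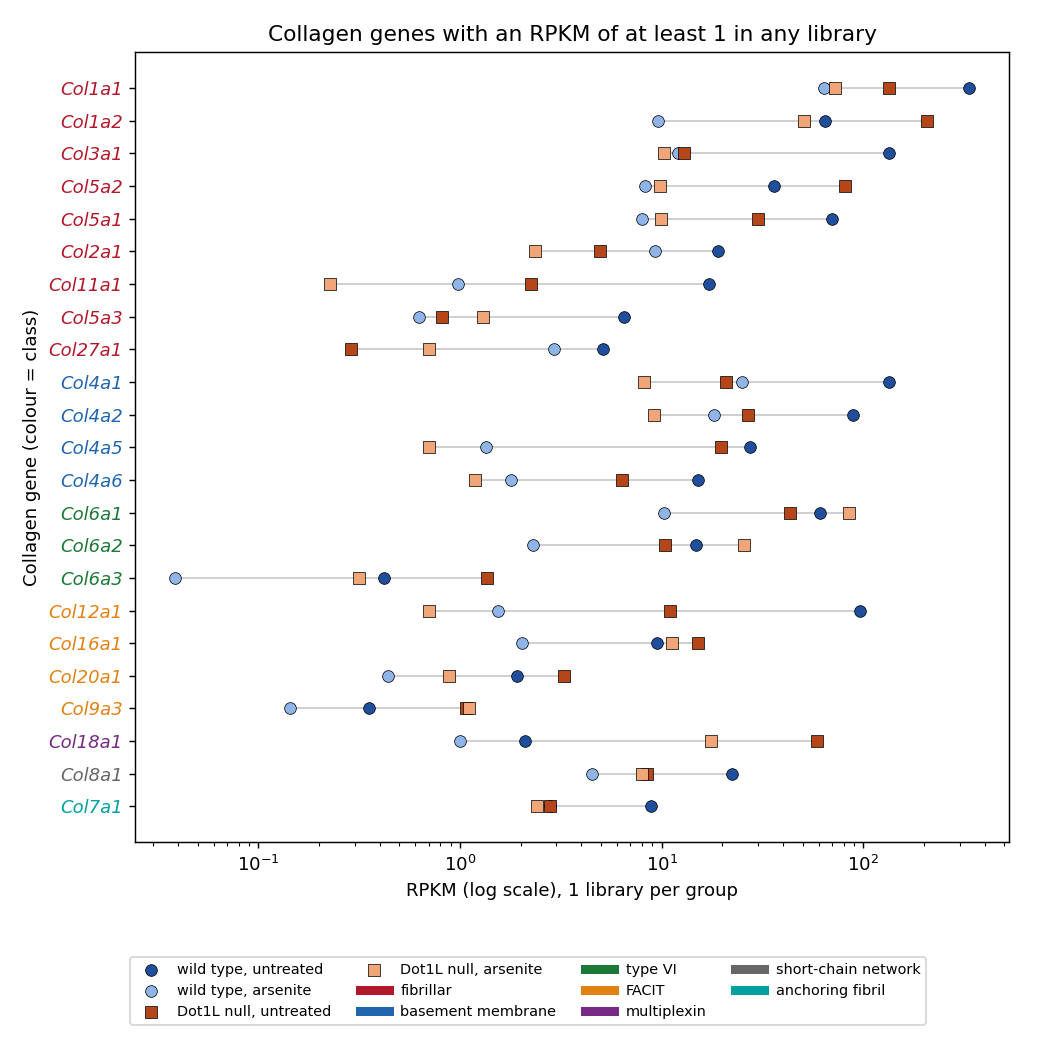
RPKM (log axis) of the 23 collagen genes that reached an RPKM of 1 in any library, each point a single library; label colours give the collagen class. For most genes the untreated wild-type library (dark blue) lies to the right, as for Col12a1 at 96.6, whereas Col18a1 lies to the right in both null libraries, at 58.7 and 17.6.

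RefSeq upstream sequence (GRCm38.p6, the 250 bases before the annotated start, 5′ to 3′ on the gene's strand) is shown for 4 genes whose values turn in different ways between libraries. Col6a1 and Col6a2 are the pair that was higher with arsenite in null cells and lower in wild-type cells. Col18a1 and Col3a1 had the highest and the lowest log2 difference between the untreated genotypes. Capitals mark the letters of 5 motifs, searched on both strands: CCAAT (the CCAAT box), TATAAA (the TATA box), GGGCGG (the GC box), TGANTCA (an AP-1 site) and TGACNNNGC (the core of the antioxidant response element).
Col6a1, chr10:76726045-76726294, minus strand: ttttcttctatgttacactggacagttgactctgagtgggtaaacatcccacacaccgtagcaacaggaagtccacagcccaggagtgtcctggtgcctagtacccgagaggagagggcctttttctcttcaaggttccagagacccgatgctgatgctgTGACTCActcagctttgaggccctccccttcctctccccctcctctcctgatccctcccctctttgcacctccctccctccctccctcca
Col6a2, chr10:76623631-76623880, minus strand: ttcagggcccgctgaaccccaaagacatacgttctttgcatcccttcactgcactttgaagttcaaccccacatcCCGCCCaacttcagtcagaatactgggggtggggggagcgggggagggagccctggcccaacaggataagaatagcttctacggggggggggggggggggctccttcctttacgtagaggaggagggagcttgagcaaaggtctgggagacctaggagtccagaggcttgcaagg
Col3a1, chr1:45311288-45311537, plus strand: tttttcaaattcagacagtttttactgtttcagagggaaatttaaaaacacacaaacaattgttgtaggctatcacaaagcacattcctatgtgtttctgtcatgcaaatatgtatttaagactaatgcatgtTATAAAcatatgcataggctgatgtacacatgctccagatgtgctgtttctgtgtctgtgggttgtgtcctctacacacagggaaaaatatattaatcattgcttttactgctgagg
Col18a1, chr10:77166531-77166780, minus strand: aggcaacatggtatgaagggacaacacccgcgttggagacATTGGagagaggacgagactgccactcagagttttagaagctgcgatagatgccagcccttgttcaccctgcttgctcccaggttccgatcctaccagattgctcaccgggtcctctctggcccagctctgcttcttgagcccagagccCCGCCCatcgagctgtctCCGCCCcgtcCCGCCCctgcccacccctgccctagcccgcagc
The Col6a1 window holds 1 AP-1 match and no other motif, and was the only one of the 35 collagen windows in the table with AP-1 letters, which occur in 6.75% of all 32851 windows of this length. The Col6a2 window holds 1 GC box and no AP-1 match. The Col3a1 window holds 1 TATA box, the only one among the 18 windows of collagens that passed the filter (12.4% of all windows), and its G and C content was 35.2% against 62.0% for Col18a1, whose window holds 1 CCAAT box and 3 GC boxes. Among those 18 windows, 13 held a GC box (32.7% of all windows), 9 a CCAAT box (33.8%) and 2 the antioxidant core (10.2%). The 4 windows shown lie at the outer end of the gene. Some of the others, such as those of Col4a1 and Col5a1, lie before an annotated start inside the gene. Col18a1 and Col6a2 had 2 windows each, and the window at the outer end was used. Col1a1, Col5a2, Col12a1, Col2a1 and Col9a3 had no window in the table. A match describes the letters, and no binding was measured.

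As a part of all reads, the collagen share was highest in untreated wild-type cells and lowest in wild-type cells with arsenite. It was 0.942% of reads in the wild-type control (95% exact interval 0.939 to 0.944), 0.138% with arsenite (0.135 to 0.140), 0.616% in the null control (0.614 to 0.618) and 0.240% in the null with arsenite (0.237 to 0.243). These intervals, and all those below, cover counting error only. With arsenite the share was 6.85-fold lower in wild-type cells (6.74 to 6.96) and 2.57-fold lower in null cells (2.53 to 2.60). These folds depend on the most abundant genes. Without the 100 genes with most reads in each library they were 2.11 and 1.12. The share was then highest in the null control (0.459%, against 0.444% in the wild-type control). This step kept 40 collagens in the wild-type control, 43 in the null control and all 44 in both arsenite libraries. It took collagens out of the controls only, so these folds and shares compare unlike sets of collagens. Over genes of at least 2000 bases the folds were 4.53 and 1.6. Fibrillar genes were the largest class in every library, with 58.7, 61.8, 67.2 and 47.8% of the summed collagen RPKM. Basement membrane genes held 22.7 and 24.6% in the wild-type libraries but 10.5 and 5.82% in the null libraries. Type VI genes held 6.51, 6.69, 7.85 and 33.4%, so the null library with arsenite stood apart from the other three. FACIT genes fell from 9.24% of the summed RPKM to 2.27% with arsenite in wild-type cells and stood at 4.39 and 4.33% in null cells. Multiplexins (types XV and XVIII) held 0.186, 0.570, 8.36 and 5.36%.

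**Figure D2:**
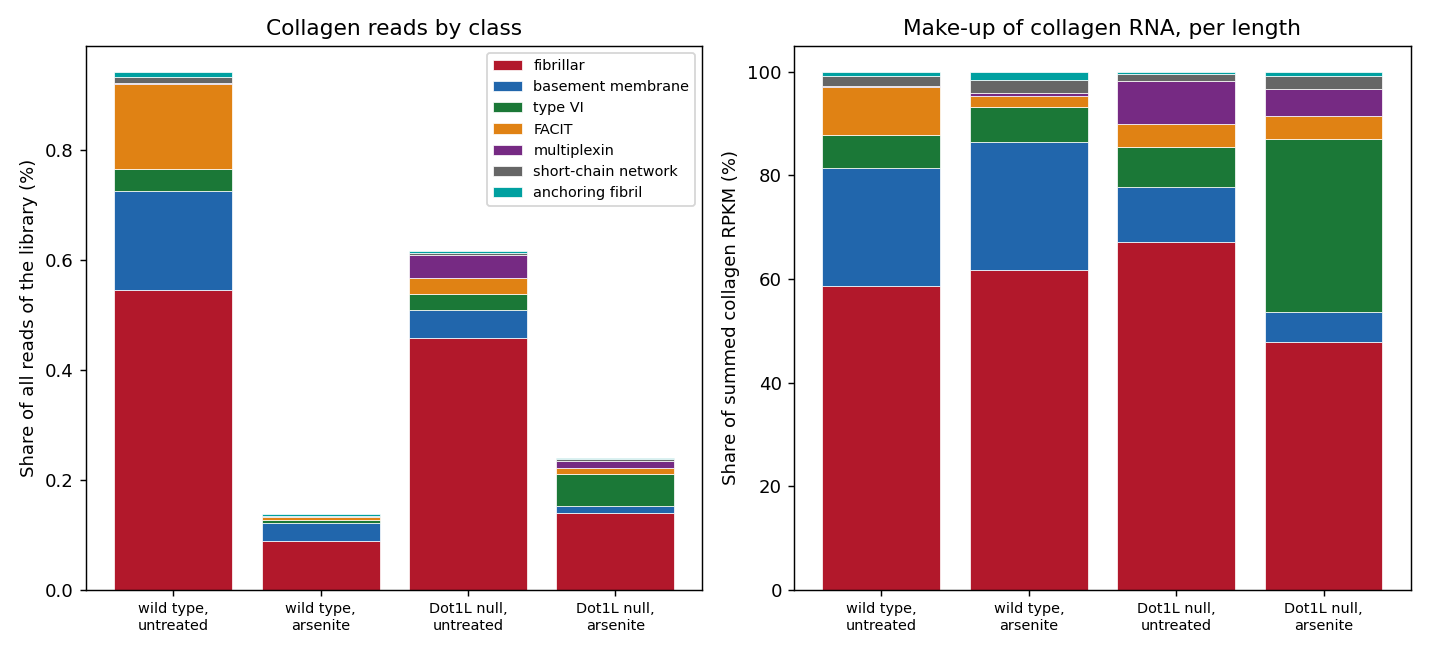
Collagen genes by class as a share of all reads of each library (left, %) and as a share of the summed collagen RPKM (right, %), 1 library per bar. Bars on the left reach 0.942, 0.138, 0.616 and 0.240%, and the type VI segment on the right takes 33.4% in the null library with arsenite; 2 minor classes, each under 0.1% of the summed RPKM, are not drawn.

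Arsenite against control in wild-type cells addressed how collagen RNA differed after exposure. Fibrillar, type IV, type VI and FACIT genes were lower, most of all Col12a1, the type XII chain that sits on fibrils. Its RPKM was 96.6 untreated and 1.55 after exposure, 62.3-fold lower (55.1 to 70.7). To count genes, 1 was added to each RPKM and the log2 ratio taken, which makes changes of low genes look smaller than they are, and a gene was counted from 2-fold. On that scale 18 of 23 collagen genes were lower and none higher, or 78.3%, where 35.7% of all 12588 genes tested were lower and 12.8% higher. The collagen median was −2.24 and that of all genes −0.56, so collagens lay 1.68 below the rest.

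Gene length moved with these differences. The collagen genes past the filter had a median recovered length of 7021 bases against 3340 for all genes tested, and long genes as a whole were lower: of genes from 6000 to under 8000 bases 61.4% were lower, with a median of −1.28. The 9 collagens in that range had a median of −2.24, and 7 of them were lower. When the median of genes of like length was subtracted from each gene, 10 of 23 collagens stayed at least 2-fold lower and none was higher, against 15.2% of all genes lower and 15.8% higher. Their median was then −0.94. The 10 were Col12a1, Col4a5, Col3a1, Col11a1, Col6a1, Col5a1, Col1a2, Col4a6, Col1a1 and Col4a1, in order from −3.58 to −1.02.

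**Figure D3:**
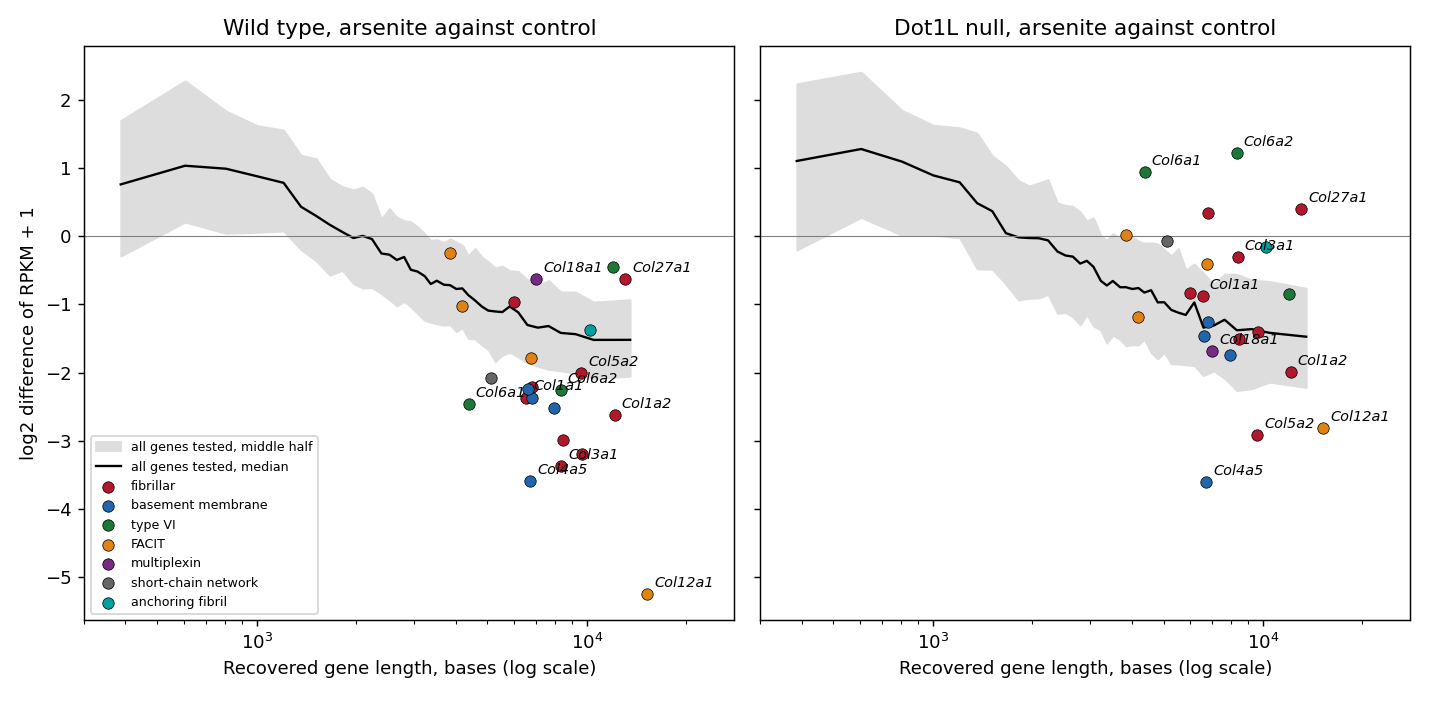
log2 difference of RPKM + 1 between arsenite and control against recovered gene length (bases, log axis) in wild-type (left) and Dot1L null cells (right); the line is the median and the band the interquartile range of all genes tested with at least 200 bases, in bins by length, and coloured points are collagen genes. In wild-type cells most collagens lie below the line, down to Col12a1 at −5.26, whereas in null cells they lie on both sides of it, with Col6a2 at 1.22 and Col4a5 at −3.60.

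Of 9 fibrillar genes past the filter, 7 were lower in wild-type cells with arsenite. Col3a1, the chain of type III collagen found in stretchy tissues such as skin and vessel walls, stood at 135 RPKM before and 12.1 after exposure, 11.1-fold lower (10.5 to 11.8). Col11a1, a type XI chain best known from cartilage, stood at 17.1 and 0.975, 17.6-fold lower (14.5 to 21.6). The type I chains were closer together: Col1a1 was 5.23-fold lower (5.08 to 5.39) and Col1a2, at 64.2 and 9.58, was 6.71-fold lower (6.34 to 7.10). Type V collagen starts fibrils and limits their width. Its chains Col5a1 (70.1 and 7.98), Col5a2 (36.2 and 8.28) and Col5a3 (6.53 and 0.624) were 8.78-fold, 4.38-fold and 10.5-fold lower. The other 2 fibrillar genes did not reach 2-fold on the log2 scale used. They were Col2a1, the main cartilage collagen, at 19.1 and 9.31 (log2 −0.96), and Col27a1, at 5.09 and 2.93 (−0.63).

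All 4 type IV genes past the filter were lower in wild-type cells with arsenite. Col4a1 and Col4a2, which encode the chains found in nearly all basement membranes, were 5.37-fold (5.13 to 5.63) and 4.92-fold (4.65 to 5.20) lower, from 134 to 25 and from 89.2 to 18.1 RPKM. Col4a5 and Col4a6, chains of more specialised basement membranes, stood at 27.5 and 1.35 and at 15.1 and 1.79. They were 20.4-fold (16.7 to 25.2) and 8.41-fold (7.17 to 9.93) lower, so Col4a5 lay well beyond its relatives.

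Type VI chains were lower too. Col6a1 went from 61.2 to 10.2 RPKM, 5.97-fold lower (5.46 to 6.55), and Col6a2 from 14.8 to 2.29, 6.45-fold lower (5.62 to 7.45). Col6a3, which encodes the longest of the classic type VI chains, had 315 control reads and 5 after exposure (0.418 and 0.0386 RPKM), 10.8-fold lower with a wide interval (4.60 to 33.6). Its level was under 1 in both libraries, and on the log2 scale used its difference was −0.45.

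Outside those classes, Col8a1, a short-chain collagen of vessel walls and the cornea, stood at 22.4 and 4.52, 4.96-fold lower (4.37 to 5.65). Col7a1, the collagen of the anchoring fibrils that tie epidermis to dermis, stood at 8.84 and 2.79, 3.16-fold lower (2.82 to 3.56). Subtracting like-length genes turned the log2 difference of Col7a1 from −1.38 to 0.15. Among the FACIT genes Col16a1 (9.48 and 2.04) was 4.65-fold lower and Col20a1 (1.91 and 0.440, 20 reads with arsenite) 4.34-fold lower (2.78 to 7.17). Col9a3 (0.354 and 0.144, 6 reads with arsenite, 2.47-fold lower, 1.09 to 6.91) and the multiplexin Col18a1 (2.09 and 0.999) did not reach 2-fold on the log2 scale, at −0.24 and −0.63.

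Arsenite against control in null cells gave a divided picture: type IV, Col1a2, Col5a2 and Col12a1 were lower, and the type VI genes Col6a1 and Col6a2 were higher. In all 11 of 23 collagen genes were at least 2-fold lower and 1 was higher, or 47.8 and 4.35%, beside 37.1 and 15.2% of all genes tested. The share lower was below that of all genes from 6000 to under 8000 bases, which was 57.6%. The collagen median was −0.88, which is 0.34 below that of all genes (−0.53). After like-length genes were subtracted, 3 collagens were lower and 6 higher (median 0.19), beside 21.4% of all genes lower and 19.2% higher. The share of called collagens that were higher therefore moved from 8.33% to 66.7% by this step, and to 25% when the median over all genes was set to 0, beside 29.0, 47.3 and 49.6% of all called genes.

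Col6a2 was the collagen gene counted as higher, from 10.4 to 25.6 RPKM, 2.47-fold (2.35 to 2.58). Col6a1 fell just short of the 2-fold line, from 43.4 to 84.4, 1.94-fold higher (1.88 to 2.01). Col6a3 had 1057 control reads and 45 after exposure (1.37 and 0.317 RPKM), 4.31-fold lower (3.2 to 5.95), so this chain differed in the other direction. Smooth muscle markers were set beside the pair. Acta2 had RPKM values of 721, 956, 80.5 and 1328 and Tagln, an actin-binding protein, 2.80, 9.72, 20.0 and 248. Both were highest in the null library with arsenite but, unlike the pair, were not lower with arsenite in wild-type cells. Of the other listed markers Des had 0.254, 1.45, 0.358 and 1.68. Cnn1, at 0.396, 0.585, 0.0587 and 0.178, was highest in wild-type cells with arsenite, and Myh11 did not pass 0.0888. The part of smooth muscle genes in the type VI values was not tested.

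Fibrillar genes were split in null cells. Col5a2 went from 81.1 to 9.84 RPKM, 8.24-fold lower (7.77 to 8.75), and Col1a2 from 206 to 50.9, 4.05-fold lower (3.95 to 4.14). Col1a1 (133 and 72.2) was 1.85-fold lower (1.80 to 1.90), and Col3a1 (12.9 and 10.3) 1.25-fold lower (1.17 to 1.34). Both stayed inside 2-fold. Col5a1 was 3.04-fold lower (2.85 to 3.24) and Col11a1 9.94-fold lower (6.76 to 15.3), from 1408 reads to 26. For Col11a1 the log2 difference of −1.41 became 0.05 with like-length genes subtracted. Col5a3 (0.813 and 1.3) and Col27a1 (0.287 and 0.698) were 1.6-fold (1.27 to 1.99) and 2.43-fold (1.92 to 3.06) higher in RPKM, at log2 differences of 0.34 and 0.40.

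Type IV genes were lower in 4 of 4 cases in null cells as well, but in 2 with the median over all genes set to 0 and in 1, Col4a5, relative to like-length genes. Col4a1 (20.9 and 8.17) was 2.56-fold (2.36 to 2.77), Col4a2 (26.9 and 9.14) 2.94-fold (2.73 to 3.17) and Col4a6 (6.34 and 1.19) 5.31-fold lower (4.40 to 6.47). Col4a5 again stood out, from 19.7 to 0.702, 28.1-fold lower (21.6 to 37.2). Against like-length genes its log2 difference was −2.31 in both genotypes, the lowest of the collagens in null cells, where Col4a1 was at −0.05, Col4a2 at −0.21 and Col4a6 at −0.46.

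Col12a1 was 15.7-fold lower in null cells (13.2 to 18.8), from 11 to 0.702. Col18a1, whose protein releases the fragment endostatin, went from 58.7 to 17.6, 3.33-fold lower (3.16 to 3.51). Col20a1 (3.27 and 0.883) was 3.70-fold lower (2.73 to 5.13). Col16a1 (15.2 and 11.2), Col7a1 (2.79 and 2.40), Col8a1 (8.45 and 8.03) and Col9a3 (1.08 and 1.11) lay within 1.5-fold of their controls. Col2a1, at 4.95 and 2.34, was 2.11-fold lower (1.80 to 2.49), at a log2 difference of −0.83.

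The arsenite comparisons of both genotypes share no library, and 10 of 23 collagen genes were lower in both, or 43.5%, beside 26.3% of all genes tested. Relative to like-length genes 2 collagens, Col4a5 and Col12a1, were lower in both, or 8.70%, beside 10.2% of all genes. Col6a2 was past 2-fold in opposite directions, lower in wild-type and higher in null cells. Relative to like-length genes 2 other collagens were past 2-fold in opposite directions, Col6a1 at −1.66 and 1.78 and Col3a1 at −1.95 and 1.08, and Col6a2 stood at −0.84 and 2.61.

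**Figure D4:**
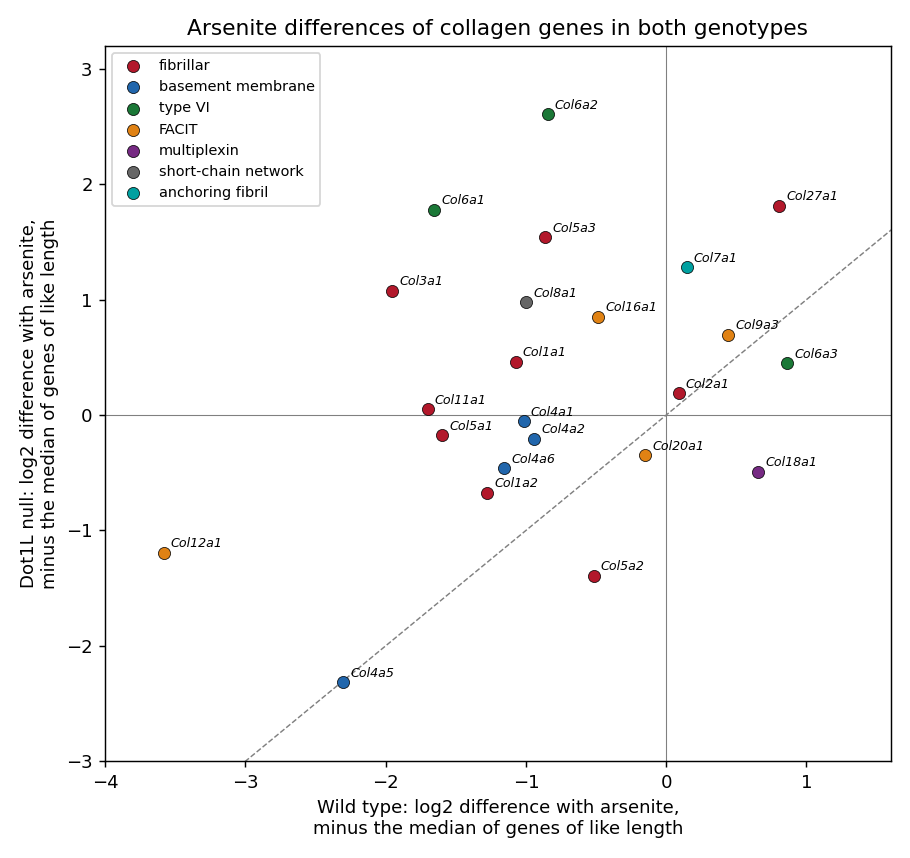
log2 difference with arsenite in wild-type (horizontal) and Dot1L null cells (vertical), each minus the median of genes of like length; points are collagen genes and the dashed line marks equal values. Most points lie above the dashed line, with Col6a1 and Col6a2 farthest from it, and Col4a5 lies on it at −2.31.

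The log2 difference with arsenite in null cells exceeded that in wild-type cells by 1 or more in 13 of 23 collagens, or 56.5%, and lay below it by 1 or more in 1, or 4.35%. Of all genes tested 12.1 and 12.8% were past those bounds. The median was 1.12 for collagens and −0.06 for all genes, and it was 1.17 for collagens with like-length genes subtracted, so it moved little with gene length. The most positive gaps were Col6a2 (3.49), Col6a1 (3.41), Col3a1 (3.07), Col5a3 (2.56), Col12a1 (2.44) and Col8a1 (2.02). Of the type IV genes, Col4a1 was at 1.12, Col4a2 and Col4a6 at 0.78 and Col4a5 at 0.00. Small gaps were also seen in other classes, as for Col2a1 (0.13), Col20a1 (−0.16), Col9a3 (0.27), Col6a3 (−0.40) and Col1a2 (0.63). Col18a1 was the most negative at −1.05, followed by Col5a2 at −0.92. The gap uses the same 4 libraries as every other comparison and adds no independent evidence. For many of these genes the untreated genotypes already differed, as described next.

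Without arsenite, most collagen genes were lower in null than in wild-type cells, while Col18a1, Col1a2 and Col5a2 were higher. In all 13 of 23 were at least 2-fold lower and 3 higher, or 56.5 and 13%, beside 14.7 and 6.45% of all genes tested. The collagen median was −1.19 and that of all genes −0.17. Subtracting like-length genes gave 12 lower and 3 higher, beside 10.9 and 9.15% of all genes. Both libraries were deep, and genes of 6000 to under 8000 bases had a median of −0.23.

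Col18a1 had an RPKM of 2.09 in wild-type and 58.7 in null cells, 28.1-fold higher (26.3 to 30.0). Col1a2 was 3.21-fold higher (3.17 to 3.24) while its partner chain Col1a1 was 2.51-fold lower (2.48 to 2.53). Likewise Col5a2 was 2.24-fold higher (2.20 to 2.27) while Col5a1 was 2.33-fold lower (2.29 to 2.37) and Col5a3 8.04-fold lower (7.20 to 9.00). Thus the chains of types I and V parted in direction between the cells. Col3a1 was 10.5-fold lower in the null (10.2 to 10.8), and Col27a1, at 5.09 and 0.287, 17.7-fold lower (15.6 to 20.3). Col12a1 was 8.79-fold lower (8.61 to 8.96), Col11a1 7.60-fold (7.19 to 8.05) and Col4a1 6.42-fold (6.28 to 6.57).

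Col4a2, Col4a6, Col2a1, Col7a1 and Col8a1 were lower in untreated null cells by 2.38-fold to 3.86-fold. Col4a5, Col6a1 and Col6a2 differed least among the chains of types IV and VI, at 1.39-fold, 1.41-fold and 1.43-fold lower. Col6a3 (0.418 and 1.37), Col9a3 (0.354 and 1.08), Col20a1 (1.91 and 3.27) and Col16a1 (9.48 and 15.2) were 1.6-fold to 3.27-fold higher in RPKM, none past 2-fold on the log2 scale. Of 8 cartilage markers only Sox9 passed the filter, at 2.80 in wild-type and 25.7 in null cells, and the other 7 stayed below 1 in every library, whereas the cartilage collagens Col2a1 (19.1 and 4.95) and Col11a1 (17.1 and 2.25) were lower.

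Between the arsenite libraries the direction was mixed and leaned the other way. Of 23 collagens 5 were higher in the null and 3 lower, or 21.7 and 13%, beside 8.75 and 16.9% of all genes tested, and the collagen median was 0.22 against −0.28 for all genes. Of called collagens 62.5% were higher, and 75% with the median over all genes set to 0, beside 34.1 and 57.1% of all called genes. The 5 were Col18a1 (17.6-fold, 14.0 to 22.5), Col6a2 (11.1-fold, 9.66 to 12.9), Col6a1 (8.24-fold, 7.50 to 9.07), Col16a1 (5.51-fold, 4.63 to 6.6) and Col1a2 (5.31-fold, 5.01 to 5.65). The 3 lower were Col4a1 (3.06-fold, 2.80 to 3.35), Col2a1 (3.97-fold, 3.34 to 4.74) and Col27a1 (4.19-fold, 3.39 to 5.23). Col3a1 (12.1 and 10.3), Col1a1 (63.9 and 72.2), Col5a1 (7.98 and 9.91) and Col5a2 (8.28 and 9.84) were within 1.3-fold, so the wide gaps of the untreated cells were not seen at these levels.

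Ratios between chains within a library do not depend on the scaling between libraries. Type I collagen is in the main a trimer with more of the Col1a1 chain than of the Col1a2 chain. The RPKM ratio of Col1a1 to Col1a2 was 5.21 in the wild-type control (5.16 to 5.26) and 6.68 with arsenite (6.27 to 7.11). In the null it was 0.648 (0.642 to 0.655) and 1.42 with arsenite (1.37 to 1.47). Per length, Col1a2 therefore exceeded Col1a1 in the null control alone. In reads not divided by length it did so in both null libraries, at ratios of 0.351 and, with arsenite, 0.767. Col5a1 to Col5a2 went from 1.93 to 0.964 in wild-type cells and from 0.371 to 1.01 in null cells, so the arsenite libraries were alike and the controls were not.

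Col4a1 and Col4a2, whose chains join in the same trimer, changed places between genotypes. Col4a1 to Col4a2 was 1.51 (1.49 to 1.53) and 1.38 (1.28 to 1.48) in wild-type cells and 0.778 (0.757 to 0.800) and 0.894 (0.803 to 0.995) in null cells, so the order of the chains differed by genotype and not by treatment. Col4a5 to Col4a6 fell from 1.82 to 0.75 in wild-type cells and from 3.11 to 0.588 in null cells with arsenite. Col6a1 to Col6a2 was the steadiest of the pairs, at 4.13, 4.46, 4.19 and 3.30. Col6a3 to Col6a1 did not pass 0.0315 in any library, so Col6a3 RNA was scarce beside its partners throughout.

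**Figure D5:**
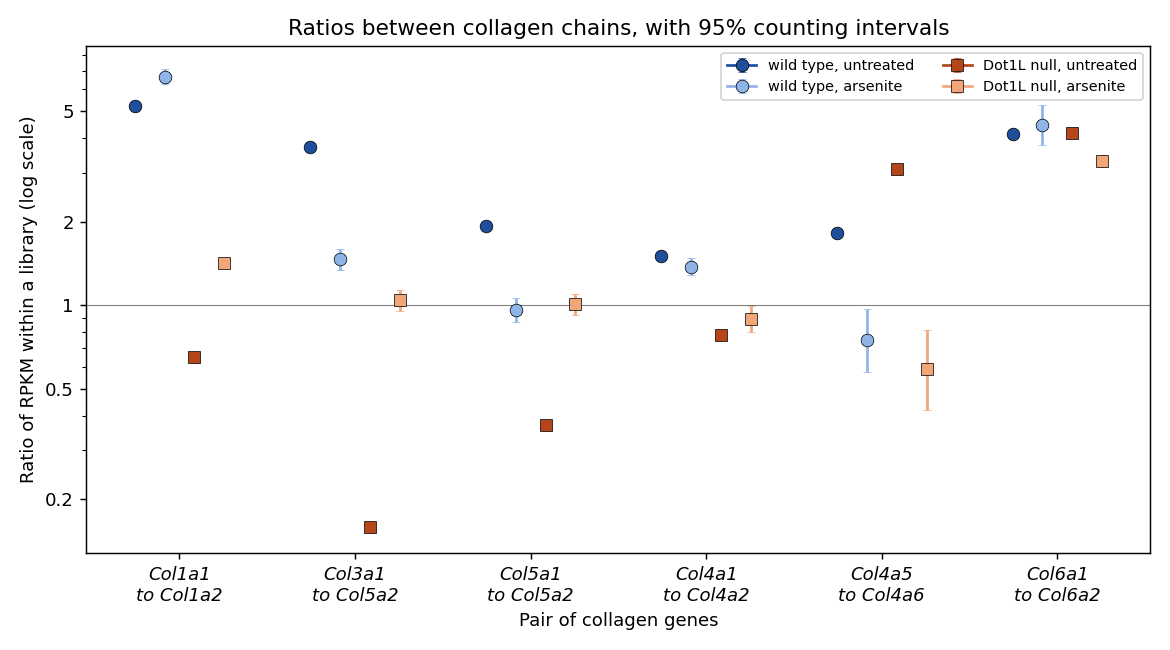
Ratio of RPKM between a pair of collagen genes in each library (log axis), with 95% counting intervals; the grey line marks equal RPKM. Col1a1 to Col1a2 lies at 5.21 and 6.68 in wild-type libraries and at 0.648 and 1.42 in null libraries, whereas Col6a1 to Col6a2 stays between 3.30 and 4.46.

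Collagen genes that lie beside each other on a chromosome were compared by their values (RefSeq, GRCm38.p6). Col4a1 (chr8:11198423-11312889, minus strand) and Col4a2 (chr8:11312805-11449287, plus strand) run in opposite directions from starts that overlap, and their log2 differences with arsenite were −2.38 and −2.24 in wild-type and −1.26 and −1.46 in null cells. Col4a6 (chrX:141165403-141474095, minus strand) and Col4a5 (chrX:141475370-141689236, plus strand) are also head to head, 1274 bases apart, but differed more, at −2.53 and −3.60 and at −1.74 and −3.60. Col6a2 (chr10:76595756-76623630) and Col6a1 (chr10:76708792-76726044), both on the minus strand with 85161 bases between them, stood close together, at −2.47 and −2.26 for Col6a1 and Col6a2 in wild-type and at 0.94 and 1.22 in null cells. Col3a1 (chr1:45311538-45349706) and Col5a2 (chr1:45374331-45503282) are 24624 bases apart and parted: untreated null cells had 10.5-fold less Col3a1 and 2.24-fold more Col5a2, and their RPKM ratio was 3.72 in untreated wild-type and 0.158 in untreated null cells. How reads of the overlapping ends of Col4a1 and Col4a2 were assigned is not given in the sources used here.

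The genes that modify, export, cross-link, bind and cut collagen, or signal to its genes, were listed apart from the collagens. Of 65 such genes 56 passed the filter. With arsenite 28 of the 56 were lower and 2 higher in wild-type cells (median −1.0), beside 35.7 and 12.8% of all genes tested. In null cells 22 of the 56 were lower and 7 higher (median −0.43), beside 37.1 and 15.2%, so the part lower lay near that of all genes. After subtracting like-length genes 15 were lower and 5 higher in wild-type cells, beside 15.2 and 15.8% of all genes. In null cells 17 were then lower and 19 higher, beside 21.4 and 19.2%. Those with the largest differences in wild-type cells were Sec24d, a coat protein of export vesicles (34.7 to 2.56 RPKM), Lox, a cross-linking enzyme (32.5 to 2.69), Tgfbr2, a receptor for TGF-beta (32.8 to 3.63), Timp3 (99.2 to 14.6) and Timp1 (169 to 1013), inhibitors of matrix metalloproteinases, and Smad4, which carries the TGF-beta signal (35.4 to 4.72). In null cells they were Timp3 (457 to 22.5), Tgfbr1 (15.4 to 0.554), Sec24d (20.3 to 1.16), Smad2 (19.5 to 1.26), Timp1 (147 to 1239) and the collagen receptor Ddr2 (59.9 to 7.57). Timp1 was thus higher, and Timp3 lower, in both genotypes.

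The other 21 collagen genes stayed below an RPKM of 1 in all 4 libraries, and 14 of them below 0.1. None was at 0 in every library, and 11 were at 0 in at least 1. They were Col11a2 and Col24a1 among fibrillar genes, Col4a3 and Col4a4, which form basement membranes of kidney and lung together with Col4a5, and the long type VI chains Col6a4, Col6a5 and Col6a6. The FACIT genes among them were Col9a1, Col9a2, Col14a1, Col19a1 and Col22a1. The transmembrane genes Col13a1, Col17a1, Col23a1 and Col25a1, the short-chain genes Col8a2 and Col10a1, the multiplexin Col15a1 and Col26a1 and Col28a1 completed them. Col11a2 was the highest, at 0.623, 0.514, 0.871 and 0.444. Col14a1, a FACIT gene of skin and tendon, had 12 reads in untreated wild-type and 138 in untreated null cells (0.0272 and 0.304 RPKM). Col10a1, a marker of cartilage cells about to turn to bone, had at most 3 reads in a library, near the limit of what the depth can show.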

How the data were processed

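RNA from 4 groups of mouse embryonic fibroblasts, 1 library each, was sequenced. The labels' protocols describe depletion of ribosomal RNA, a directional dUTP kit and paired reads; the molecule label reads polyA RNA, and which holds is not settled. TopHat, HTSeq, Bowtie and deepTools and the build mm10 are named in the submitters' processing notes, without roles; neither annotation nor strand setting is given in the sources used here. The authors deposited RPKM values for 37224 Ensembl IDs. Symbols were found for 35449 of them.

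Reads were recovered from the RPKM steps. The most frequent depth implied by small RNA genes of known span was taken as the divisor, and the shortest length giving whole reads in all libraries, within a relative tolerance of 1e-12, as the gene length. One was found for 21616 of 21617 genes above 0; some may be a whole fraction of the true length. The procedure was tested on simulated data. Recovered reads served for intervals, shares, lengths and thinning, never for a count model.

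Log2 differences used a pseudocount of 1 and genes reaching 1 RPKM in any library; 2-fold was counted as higher or lower. For like length, the median of the 201 genes tested nearest in length, of at least 200 bases, was subtracted. Intervals are exact 95% intervals (Clopper-Pearson, conditional for ratios) for counting error only; reads without molecular identifiers are not independent molecules, so they can be too narrow. With 1 library per group no p-value was computed. Python 3.11.15, pandas 2.3.3 and scipy 1.17.1 were used. Collagen genes of at least 1 RPKM were all named, and up to 6 partner genes per genotype. The members and lists were chosen with earlier results of these data known.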

Additional observations from a re-analysis of the deposited data

Results flagged for a closer look

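Col6a2 was past 2-fold in opposite directions with arsenite in the 2 genotypes, at log2 −2.26 in wild-type and 1.22 in null cells, a difference of 3.49. Each genotype held 1 library per treatment, and the difference was not tested against replicate error. The difference was 3.58 when the median difference of like-length genes was subtracted from it directly, rather than from the value of each genotype.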

How the results depend on the processing

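No paired analysis was possible because each group holds 1 library and the labels give no replicate numbers; for the same reason no replicate could be left out. The counts of collagens lower between untreated genotypes, higher with arsenite in wild type, higher between arsenite libraries and more positive in the difference of the arsenite effects stayed within 1.5 times under all 7 alternatives. Subtracting like-length genes moved the wild-type count of lower genes from 18 to 10, the null count from 11 to 3 and the null count of higher genes from 1 to 6. That alternative removes the length trend, and the cause of these moves was not tested. In null cells, median centring gave 6 lower and 2 higher, 75th percentile scaling 7 and 2, and a pseudocount of 0.1 gave 2 higher; the cause was not tested. That pseudocount also gave 5 higher between untreated genotypes and 5 lower between arsenite libraries. The 1 collagen more negative in the null became 0 under that pseudocount, both scalings and length subtraction. No count moved by more than 1.5 times with no filter, a filter at an RPKM of 5, or libraries thinned to one depth. Length subtraction turned the sign of 6 of 23 collagens with arsenite in wild type and 8 in null cells, all from lower to higher, of 2 between arsenite libraries and of 0 between untreated genotypes. Of those called before it, Col11a1 in null cells became 0.0517 and Col7a1 in wild type 0.15. Col3a1 and Col7a1 in null cells became 1.08 and 1.28, from −0.30 and −0.16.

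Without the 100 genes with most reads (which removes 4 collagens from the wild-type and 1 from the null control), the collagen share was 0.444, 0.210, 0.459 and 0.409%; over genes of at least 2000 bases it was 1.13, 0.251, 0.763 and 0.477%. As ratios of reads not divided by length, Col1a1 to Col1a2 was 2.82, 3.61, 0.351 and 0.767, Col6a1 to Col6a2 2.17, 2.35, 2.20 and 1.74, Col6a3 to Col6a1 0.0187, 0.0103, 0.0859 and 0.0102, Col5a1 to Col5a2 1.71, 0.853, 0.329 and 0.892, and Col4a1 to Col4a2 1.55 and 0.802 in the controls; these differ by construction. Depth limits Col6a3, Col9a3 and Col20a1, with 5, 6 and 20 reads in the wild-type arsenite library.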
